A study of Homo sapiens with 10 samples.

Results

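ABTr2 is a veliparib-resistant clone of the ovarian cancer cell line PEO1, and it was compared here with the parental PEO1 cells it came from, across all genes. The 4 libraries of the comparison, ABTr2 replicates 1 and 2 and PEO1 replicates 1 and 2, were taken by their names from the 10 libraries analysed, which are 2 of parental PEO1 and 2 of each of the clones ABTr1, ABTr2, ABTr3 and ABTr4. PEO1 is an established line from a high grade serous ovarian carcinoma with defective BRCA2. According to the labels, ABTr2 was kept in 40 µM veliparib for 6 months and grown without it for 4 to 5 days before RNA was taken, its genotype entry reads veliparib resistant, and the parental cells have the treatment entry Parental and the genotype entry WT. The medium of both groups was DMEM with serum, insulin, nonessential amino acids, antibiotics and glutamine. ABTr2 is 1 clone, so resistance, long drug exposure and what the founding cell of the clone carried cannot be told apart. The sample description gives the ABTr2 libraries clone number 1, and the library names are followed here.

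Veliparib blocks PARP1 and PARP2, enzymes that mark breaks in DNA for repair, and cells without working BRCA2 cannot repair the breaks that then build up by homologous recombination. Carcinoma cells of epithelial type hold together through E-cadherin, tight junctions and keratin filaments. The mesenchymal state swaps these for N-cadherin and vimentin, and the repressors ZEB1, ZEB2, SNAI1 and SNAI2 bind the promoters of epithelial genes in that change.

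The data are sequencing read counts of polyadenylated RNA for each gene. The 2 ABTr2 libraries were the deepest and the shallowest of the 10, with 55488566 counts in replicate 1 and 20640602 in replicate 2, and the PEO1 libraries held 44602090 and 30368855. Across the 16490 genes tested, Pearson's r of log2(CPM + 0.5) was 0.957 between the ABTr2 libraries, the lowest value within any group, 0.965 between the PEO1 libraries and 0.912 to 0.951 between an ABTr2 and a PEO1 library, where CPM is a gene's count scaled to a common library total. ABTr2 replicate 1 was closer to ABTr3 replicate 1 (0.988) than to its own replicate 2, and ABTr2 replicate 2 was closer to ABTr1 replicate 2 (0.984). These r values are across genes, which are not independent replicates. Same-numbered libraries deviated in the same genes from their group means, with r = 0.490 between PEO1 and ABTr2. A second fit adds the number as a block. Its values are given for genes shown with CPM in PEO1 and ABTr2 whose call it changed. Counts with the block are given for some of the lists and not for all. The proliferation gene MKI67 moved with the replicate number, at 694 and 214 CPM in PEO1 against 282 and 61.7 CPM in ABTr2, so that it was lower in replicate 2 of both groups.

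The ovarian and epithelial markers were checked first, against the labels ovary and epithelial. PAX8, a transcription factor of Müllerian epithelium that marks serous carcinoma, was at 156 and 92.6 CPM in the PEO1 libraries and 168 and 119.5 CPM in the ABTr2 libraries, with overlapping groups (log2 fold change 0.21, edgeR adjusted p = 0.74). SOX17, a partner of PAX8, had 0 reads in all 4 libraries. WT1, another serous marker, was at 13.9 and 2.63 CPM in PEO1 against 1.91 and 0.145 CPM in ABTr2, with the groups apart (log2 fold change -2.94, edgeR adjusted p = 0.15, and -2.98 with adjusted p = 0.013 with the block). MUC16, the gene of the tumour antigen CA125, was at 20.7 and 66.4 CPM in PEO1 against 0.0363 and 1.11 CPM in ABTr2 (log2 fold change -6.45 with SE 1.57, edgeR adjusted p = 0.048), and it fell. The epithelial antigen EPCAM and the keratins KRT7, KRT8 and KRT18 were detected in every library, and each was lower in both ABTr2 libraries than in either PEO1 library. Of the 16 tested genes of the serous lineage and hormone receptors, 6 fell in ABTr2 and 2 rose, beside 2.81% and 3.31% of all genes. The kallikreins KLK5, KLK6, KLK8 and KLK10, secreted proteases of serous tumours, were among the 6. KLK6 was at 225 and 283 CPM in PEO1 against 15.1 and 15.2 CPM in ABTr2 (log2 fold change -4.07 with SE 0.30, edgeR adjusted p = 0.0016). The estrogen receptor ESR1 was at 94.2 and 123 CPM in PEO1 against 0.563 and 1.21 CPM in ABTr2 (log2 fold change -7.00 with SE 0.56, edgeR adjusted p = 0.0016), with both ABTr2 libraries below both PEO1 libraries. MECOM, a transcription factor of the female tract epithelium, rose, at 0.422 and 0.387 CPM in PEO1 against 16.5 and 7.44 CPM in ABTr2 (log2 fold change 4.88 with SE 0.61, edgeR adjusted p = 0.0057), as did the membrane estrogen receptor GPER1. MUC16 lost the call without PEO1 replicate 2 (0.17) or ABTr2 replicate 1 (0.11), by the edgeR adjusted p in brackets. WT1 had a log2 fold change of -1.31 without PEO1 replicate 1 and -5.81 without ABTr2 replicate 1 in the fit without the block. MUC16 had a log2 fold change of -10.12 without ABTr2 replicate 2. PAX8 turned to -0.10 on the log2 scale without PEO1 replicate 2 (edgeR adjusted p = 0.89). PAX8 turned to -0.059 on the log2 scale without ABTr2 replicate 1 (edgeR adjusted p = 0.94).

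Between ABTr2 and PEO1, 1008 of the 16490 genes tested had an edgeR adjusted p under 0.05, which is 6.11%. They were 545 genes higher in ABTr2 (3.31%) and 463 lower (2.81%), and 538 and 446 of these differed at least 2-fold. The median log2 fold change of all tested genes was 0.02. With the replicate number as a block, 3640 genes passed (22.1%), 1861 higher (11.3%) and 1779 lower (10.8%). All 1008 genes were among the 3640 and had the same sign. Without PEO1 replicate 2 the count of called genes was 251, without ABTr2 replicate 1 it was 406 and without ABTr2 replicate 2 it was 393. With only the 4 compared libraries in the fit, 78 genes passed (24 higher, 54 lower). A gene is said to have risen or fallen where it passed in the fit without the block, and fold changes are ABTr2 over PEO1. The shares of all tested genes given here are the background for the list counts below. Both ABTr2 libraries lay above both PEO1 libraries in 24.7% of all tested genes and below them in 21.5%. Groups without overlap are therefore common.

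Genes of epithelial adhesion and identity were lower in ABTr2. Of the 22 genes of this list tested, 13 fell and 0 rose, and with the block 19 passed as lower and 0 as higher. Of all genes tested, 2.81% fell and 10.8% passed as lower with the block. The median log2 fold change of the list was -2.41. In 20 of the 22 both ABTr2 libraries lay below both PEO1 libraries, against 21.5% of all tested genes. The list was chosen with earlier results of these data known, so the count is a description only. The summed level of the list was 4311 and 6929 CPM in PEO1 and 1757 and 1934 CPM in ABTr2. Promoter sequences are shown for OCLN, CLDN7 and RAB25, a tight junction protein, a claudin and a trafficking GTPase of polarised epithelium, because these 3 genes fell and their promoters in the RefSeq table hold the core of the site that ZEB and SNAI repressors bind. Each runs from 250 bases before to 50 bases after the start site and comes from RefSeq on GRCh38.p14, at chr5:69492297-69492596, plus strand for OCLN, chr17:7262429-7262728, minus strand for CLDN7 and chr1:156060910-156061209, plus strand for RAB25. Capitals mark CAGGTG and its reverse complement CACCTG, searched on both strands with no overlap between matches.

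OCLN: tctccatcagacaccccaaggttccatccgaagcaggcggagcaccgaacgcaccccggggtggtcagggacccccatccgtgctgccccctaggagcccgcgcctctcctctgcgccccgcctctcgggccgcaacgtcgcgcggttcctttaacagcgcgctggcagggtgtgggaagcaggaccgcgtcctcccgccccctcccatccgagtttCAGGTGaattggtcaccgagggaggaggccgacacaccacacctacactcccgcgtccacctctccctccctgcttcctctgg
CLDN7: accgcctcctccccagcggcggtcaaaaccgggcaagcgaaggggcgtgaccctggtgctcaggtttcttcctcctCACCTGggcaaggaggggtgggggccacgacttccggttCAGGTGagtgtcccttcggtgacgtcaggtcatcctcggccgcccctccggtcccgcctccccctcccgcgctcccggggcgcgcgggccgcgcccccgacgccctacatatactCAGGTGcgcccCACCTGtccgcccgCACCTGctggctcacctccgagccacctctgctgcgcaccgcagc
RAB25: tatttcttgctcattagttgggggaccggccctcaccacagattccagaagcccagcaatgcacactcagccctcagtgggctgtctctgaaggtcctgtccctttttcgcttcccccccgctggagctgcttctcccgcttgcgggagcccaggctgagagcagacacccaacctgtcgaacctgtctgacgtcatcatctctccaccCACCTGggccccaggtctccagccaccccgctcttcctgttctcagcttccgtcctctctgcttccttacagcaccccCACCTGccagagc

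The OCLN window holds 1 match, 33 bases before the start site, the CLDN7 window holds 5 and the RAB25 window holds 2. OCLN and CLDN7 each have 2 windows in the table, and the motif is in both for OCLN and in 1 for CLDN7. Of all 34961 promoter windows of this length, 20.6% hold the motif. A match describes the letters only and shows no binding. Only 69.2% of the tested genes had a window under their symbol, and CDH1 had none. The motif was in 27.8% of the windows of genes that fell, 17.7% of those of genes that rose and 19.1% of those of all tested genes. For genes that passed with the block the shares were 23.3% among those lower and 16.9% among those higher. These shares were not tested. OCLN was at 87.4 and 132 CPM in the PEO1 libraries and 6.96 and 14.5 CPM in the ABTr2 libraries (log2 fold change -3.36 with SE 0.47, edgeR adjusted p = 0.0077). CLDN7 was at 151 and 312 CPM in PEO1 against 2.36 and 13.2 CPM in ABTr2 (log2 fold change -4.92 with SE 0.91, edgeR adjusted p = 0.021). RAB25 was at 65.8 and 119 CPM in PEO1 against 1.78 and 3.43 CPM in ABTr2 (log2 fold change -5.17 with SE 1.14, edgeR adjusted p = 0.035). For these 3 genes every ABTr2 library was below every PEO1 library, and the ABTr2 replicate 2 value was the higher of the pair each time. CLDN7 (0.077) and RAB25 (0.11) lost the call without PEO1 replicate 2, by the edgeR adjusted p in brackets. RAB25 (0.13) lost it without ABTr2 replicate 1. RAB25 (0.11) lost it without ABTr2 replicate 2.

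E-cadherin itself (CDH1, hg19 chr16:68771195-68869444), the adhesion protein of adherens junctions, was at 147 and 358 CPM in the PEO1 libraries and 0.618 and 1.69 CPM in the ABTr2 libraries. The groups were far apart, and CDH1 fell (log2 fold change -7.84 with SE 1.25, edgeR adjusted p = 0.012). GRHL2, a transcription factor that keeps epithelial genes active, had 132 and 110.1 CPM in PEO1 and 0 reads in both ABTr2 libraries, which makes it at least 3116-fold lower at a floor of 3 counts over the group (edgeR adjusted p = 0.0035). Floors and counting intervals cover counting error only. ESRP1, the splicing factor of epithelial isoforms, was at 203 and 293 CPM in PEO1 against 0.273 and 0.338 CPM in ABTr2 (log2 fold change -9.69 with SE 1.61, edgeR adjusted p = 0.014). OVOL1, a repressor of ZEB1, was at 7.69 and 9.63 CPM in PEO1 against 0.0545 and 0.0966 CPM in ABTr2 (log2 fold change -6.90 with SE 0.83, edgeR adjusted p = 0.0067). The membrane protease PRSS8 was at 51.6 and 158 CPM in PEO1 against 1.18 and 2.37 CPM in ABTr2 (log2 fold change -5.92 with SE 0.74, edgeR adjusted p = 0.0057). EPCAM was reduced less, at 544 and 543 CPM in PEO1 against 102 and 129.9 CPM in ABTr2 (log2 fold change -2.23 with SE 0.27, edgeR adjusted p = 0.0051), and both ABTr2 libraries still held it at an easily measured level. CLDN4, PKP3, GRHL1 and ST14 completed the 13 genes that fell, and CLDN3, TJP3, DSP, ESRP2, ELF3 and SPINT1 passed as lower in the edgeR fit with the block and not in the one without it. CDH1 (0.058) and ESRP1 (0.069) lost the call without ABTr2 replicate 1, by the edgeR adjusted p in brackets. ESRP1 (0.060) lost it without ABTr2 replicate 2.

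**Figure D1:**
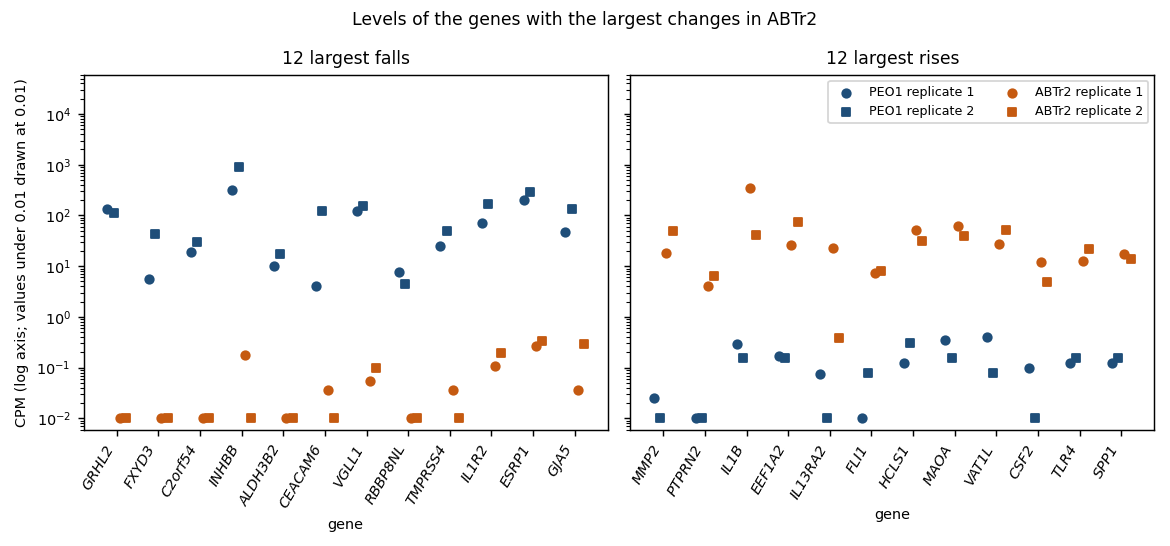
CPM on a log axis (values under 0.01 drawn at 0.01) in each of the 4 libraries, 1 point per library, for the 12 genes with the largest falls (left) and the 12 with the largest rises (right) in ABTr2 against PEO1. In every gene shown both ABTr2 points lie on the same side of both PEO1 points, and GRHL2 lies at 132 and 110.1 CPM in PEO1 and at 0 in ABTr2. The genes were chosen as large changes that passed in both fits, so this separation follows largely from the choice.

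Keratins, the intermediate filaments of epithelial cells, that passed were all lower in ABTr2. Of 13 tested, 9 fell, 0 rose and 4 were not called, while 12 passed as lower with the block, at a median log2 fold change of -3.34. Among all genes 2.81% fell and 10.8% passed as lower with the block. KRT18, a filament of simple epithelium, was at 1691 and 2379 CPM in the PEO1 libraries and 486 and 476 CPM in the ABTr2 libraries (log2 fold change -2.08 with SE 0.30, edgeR adjusted p = 0.0084). Its partner KRT8 was at 2629.7 and 3262 CPM in PEO1 against 1101 and 1045 CPM in ABTr2 (log2 fold change -1.46 with SE 0.29, edgeR adjusted p = 0.026), and KRT7 was at 2782 and 4279.9 CPM in PEO1 against 886 and 1226 CPM in ABTr2 (log2 fold change -1.74 with SE 0.37, edgeR adjusted p = 0.031). These 3 keratins did not overlap between the groups and were still far above the other keratins named here in ABTr2. KRT13, a keratin of stratified epithelium, was at 2.55 and 24.8 CPM in PEO1 against 0.0363 and 0.0483 CPM in ABTr2, a ratio of 284 (95% counting interval 96.7 to 1379) with edgeR adjusted p = 0.016. KRT15, found in basal cells, was at 114 and 938 CPM in PEO1 against 1.76 and 6.91 CPM in ABTr2 (log2 fold change -6.95, edgeR adjusted p = 0.019), and KRT80 at 306 and 443 CPM in PEO1 against 59.9 and 77.01 CPM in ABTr2 (log2 fold change -2.45, edgeR adjusted p = 0.0096). KRT5, the main basal keratin, was at 205 and 8.98 CPM in PEO1 against 0.127 and 3.77 CPM in ABTr2 (log2 fold change -5.87, edgeR adjusted p = 0.11, and -6.88 with adjusted p = 0.026 with the block), with the groups apart. Keratins and ribosomal proteins have many close copies in the genome, and how reads with several matches were counted is not given in the sources used here, so their levels are uncertain to that extent. KRT8 (0.11), KRT7 (0.13), KRT13 (0.054) and KRT15 (0.056) lost the call without PEO1 replicate 2, by the edgeR adjusted p in brackets. KRT8 (0.096), KRT7 (0.13), KRT13 (0.083), KRT15 (0.075) and KRT80 (0.055) lost it without ABTr2 replicate 1. KRT8 (0.13), KRT7 (0.078) and KRT13 (0.065) lost it without ABTr2 replicate 2. KRT5 had a log2 fold change of -2.30 without PEO1 replicate 1 and -9.68 without ABTr2 replicate 2 in the fit without the block.

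The largest falls at 5 CPM or more, called with and without the block, reached beyond the epithelial list. INHBB, a subunit of the secreted factors inhibin and activin, was at 321 and 909.9 CPM in the PEO1 libraries and 0.182 and 0 CPM in the ABTr2 libraries (log2 fold change -12.26 with SE 1.20, edgeR adjusted p = 0.0033). VGLL1 (hg19 chrX:135614311-135638966), a cofactor of TEAD transcription factors, was at 124 and 154 CPM in PEO1 against 0.0545 and 0.0966 CPM in ABTr2 (log2 fold change -10.93 with SE 0.72, edgeR adjusted p = 0.0016). IL1R2, the decoy receptor that binds interleukin 1 without signalling, was at 71.2 and 168 CPM in PEO1 against 0.109 and 0.193 CPM in ABTr2 (log2 fold change -9.72 with SE 1.09, edgeR adjusted p = 0.0047). Each of these was near 0 in both ABTr2 libraries. The following genes had 0 reads in both ABTr2 libraries. C2orf54, a gene of uncertain function, was at 19.3 and 30.2 CPM in PEO1 and at least 595-fold lower in ABTr2 (edgeR adjusted p = 0.0034). FXYD3, a regulator of the sodium pump, was at 5.65 and 44.1 CPM and at least 521-fold lower (adjusted p = 0.019 in edgeR). ALDH3B2, an aldehyde dehydrogenase, was at 10.3 and 17.4 CPM and at least 330.0-fold lower (edgeR adjusted p = 0.0086). RBBP8NL was at 7.71 and 4.37 CPM and at least 162-fold lower (edgeR adjusted p = 0.017). Few reads remained for CEACAM6, an adhesion protein of carcinoma cells, and for the membrane protease TMPRSS4. CEACAM6 was at 3.99 and 122 CPM in PEO1 against 0.0363 and 0 CPM in ABTr2, a ratio of 1903 (95% counting interval 526 to 15721) with edgeR adjusted p = 0.019, and TMPRSS4 was at 24.8 and 50.1 CPM in PEO1 against 0.0363 and 0 CPM in ABTr2, a ratio of 1314 (95% counting interval 363 to 10859) with edgeR adjusted p = 0.0052. GJA5, a gap junction protein, was at 46.9 and 132 CPM in PEO1 against 0.0363 and 0.290 CPM in ABTr2 (log2 fold change -9.47, edgeR adjusted p = 0.0072). FXYD3 (0.062) and CEACAM6 (0.083) lost the call without ABTr2 replicate 1, by the edgeR adjusted p in brackets. RBBP8NL (0.056) and CEACAM6 (0.054) lost it without PEO1 replicate 2. CEACAM6 (0.078) lost it without ABTr2 replicate 2. The fitted log2 fold change of CEACAM6 was -11.09 with all libraries and -7.15 without PEO1 replicate 2.

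Mesenchymal regulators and cytoskeletal genes that passed were all higher in ABTr2. Of 19 tested, 7 rose and 0 fell, 11 passed as higher with the block, and the median log2 fold change was 1.14. Among all genes 3.31% rose and 11.3% passed as higher with the block. Vimentin (VIM), the mesenchymal intermediate filament, was at 2.60 and 0.735 CPM in the PEO1 libraries and 93.8 and 97.3 CPM in the ABTr2 libraries (log2 fold change 5.80 with SE 0.67, edgeR adjusted p = 0.0050). Its ABTr2 libraries were close to each other and far above both PEO1 libraries. ZEB1, a repressor of CDH1, was at 2.13 and 2.79 CPM in PEO1 against 39.8 and 42.5 CPM in ABTr2 (log2 fold change 4.07 with SE 0.28, edgeR adjusted p = 0.0012), and its relative ZEB2 was at 0.694 and 1.39 CPM in PEO1 against 47.1 and 21.1 CPM in ABTr2 (log2 fold change 5.05 with SE 0.53, edgeR adjusted p = 0.0035). N-cadherin (CDH2) was at 6.05 and 11.8 CPM in PEO1 against 115 and 121 CPM in ABTr2 (log2 fold change 3.73 with SE 0.34, edgeR adjusted p = 0.0033). These 4 genes did not overlap between the groups. Smooth muscle actin (ACTA2), a contractile protein, rose (1.34 and 2.59 CPM in PEO1 against 6.29 and 12.9 CPM in ABTr2, log2 fold change 2.29, edgeR adjusted p = 0.044), as did TGFBI and PRRX1. SNAI2, TWIST1, TWIST2 and CALD1 passed as higher in the edgeR fit with the block and not in the one without it. ACTA2 lost the call without PEO1 replicate 1 (0.14), PEO1 replicate 2 (0.088) or ABTr2 replicate 2 (0.18), by the edgeR adjusted p in brackets.

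Integrins, matrix proteins and matrix proteases held few calls without the block and more with it. Of 18 integrins, 1 rose and 1 fell, beside 3.31% and 2.81% of all genes. With the block 4 integrins passed as higher and 3 as lower, beside 11.3% and 10.8% of all genes. ITGB3, the subunit of the vitronectin receptor, was at 0.397 and 0.310 CPM in the PEO1 libraries and 37.98 and 15.5 CPM in the ABTr2 libraries (log2 fold change 6.21 with SE 0.89, edgeR adjusted p = 0.0084). ITGB6, an epithelial subunit that activates latent TGF-beta, was at 107 and 133 CPM in PEO1 against 6.11 and 5.80 CPM in ABTr2 (log2 fold change -4.34 with SE 0.83, edgeR adjusted p = 0.022). The pair of beta subunits moved in opposite directions, each without overlap between the groups. Of 20 collagens and laminins, 3 rose and 0 fell, with a median log2 fold change of 0.96, and with the block 8 passed as higher and 2 (LAMA3 and LAMB3, chains of an epithelial laminin) as lower. COL6A1, a chain of the microfibrillar collagen VI, was at 6.62 and 3.17 CPM in PEO1 against 68.8 and 107 CPM in ABTr2 (log2 fold change 4.15 with SE 0.52, edgeR adjusted p = 0.0057), and LAMA4 was at 14.2 and 14.5 CPM in PEO1 against 81.3 and 73.2 CPM in ABTr2 (log2 fold change 2.43 with SE 0.25, edgeR adjusted p = 0.0034). The transmembrane collagen COL13A1 had 0 reads in PEO1 and 2.11 and 0.386 CPM in ABTr2, at least 36.1-fold higher (edgeR adjusted p = 0.018). Among 24 matrix proteases and inhibitors 2 rose and 0 fell, and 10 passed as higher and 3 as lower with the block. Gelatinase A (MMP2, hg19 chr16:55513081-55540586), which cleaves basement membrane collagen, had 1 read in the PEO1 libraries together, and it was at 0.0248 and 0 CPM in PEO1 against 18.3 and 48.9 CPM in ABTr2, a ratio of 1763 (95% counting interval 316 to 69651) with edgeR adjusted p = 0.0051. SERPINE2, an inhibitor of thrombin and urokinase, was at 108 and 195 CPM in PEO1 against 453 and 517 CPM in ABTr2 (log2 fold change 1.68, edgeR adjusted p = 0.031). The interstitial collagenase MMP1 was at 0.0744 and 0.193 CPM in PEO1 against 43.03 and 1.11 CPM in ABTr2 (log2 fold change 7.43, edgeR adjusted p = 0.054, and 6.94 with adjusted p = 0.0037 with the block), and it also passed in DESeq2, with no filter on low counts and without ABTr2 replicate 2. ITGB3 (0.064), ITGB6 (0.076) and COL13A1 (0.068) lost the call without PEO1 replicate 2, by the edgeR adjusted p in brackets. ITGB6 (0.088) and SERPINE2 (0.074) lost it without ABTr2 replicate 1. ITGB6 (0.094) and SERPINE2 (0.11) lost it without ABTr2 replicate 2. COL13A1 (0.052) and SERPINE2 (0.093) lost it without PEO1 replicate 1. MMP1 had a log2 fold change of 3.11 without ABTr2 replicate 1 in the fit without the block.

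More genes of cytokines, chemokines and their receptors passed as higher than as lower in ABTr2, whose 2 libraries lay far apart in the summed level. Of 28 cytokines, chemokines and receptors tested, 7 rose and 2 fell, beside 3.31% and 2.81% of all genes. With the block 14 passed as higher and 4 as lower, beside 11.3% and 10.8% of all genes. The median log2 fold change of the list was 1.74. The summed level of the list was 887 and 1546 CPM in PEO1 and 4106 and 1586 CPM in ABTr2, so the sum in ABTr2 replicate 2 was close to that of PEO1 replicate 2. IL1B was at 0.298 and 0.155 CPM in the PEO1 libraries and 348 and 40.6 CPM in the ABTr2 libraries (log2 fold change 9.67 with SE 1.30, edgeR adjusted p = 0.0069), and IL1A at 0.496 and 0.735 CPM in PEO1 against 43.5 and 22.1 CPM in ABTr2 (log2 fold change 5.75 with SE 0.59, edgeR adjusted p = 0.0034). Both encode forms of the pro-inflammatory interleukin 1, while IL1R2, the decoy receptor named above, fell. CSF2, the growth factor of granulocytes and macrophages, was at 0.0992 and 0 CPM in PEO1 against 11.9 and 4.98 CPM in ABTr2 (log2 fold change 7.11, edgeR adjusted p = 0.0094). IL13RA2, the decoy receptor of interleukin 13, was at 0.0744 and 0 CPM in PEO1 against 22.9 and 0.386 CPM in ABTr2, a ratio of 369 (95% counting interval 126 to 1792) with edgeR adjusted p = 0.048. The neutrophil attractants CXCL8 and CXCL3 and the NF-kB target BIRC3 were the other genes that rose, and the membrane chemokine CXCL16 fell. The monocyte attractant CCL2 was at 0.248 and 0.155 CPM in PEO1 against 4.11 and 109 CPM in ABTr2 (log2 fold change 8.06, edgeR adjusted p = 0.0513, and 7.01 with adjusted p = 0.0014 with the block). TLR4, the receptor of bacterial lipopolysaccharide, was at 0.124 and 0.155 CPM in PEO1 against 12.5 and 21.7 CPM in ABTr2 (log2 fold change 6.93 with SE 0.66, edgeR adjusted p = 0.0033). The secreted phosphoprotein SPP1 (osteopontin) was at 0.124 and 0.155 CPM in PEO1 against 17.2 and 14.2 CPM in ABTr2 (log2 fold change 6.81, edgeR adjusted p = 0.012). S100A9 and LCN2, antimicrobial proteins of epithelium and neutrophils, passed as lower with the block, and of the other tools S100A9 passed in limma-voom and LCN2 in DESeq2. S100A9 was at 115 and 161 CPM in PEO1 against 1.04 and 9.57 CPM in ABTr2 (log2 fold change -4.73, edgeR adjusted p = 0.17, and -5.85 with adjusted p = 0.0015 with the block), and LCN2 at 73.4 and 550.0 CPM in PEO1 against 2.18 and 13.3 CPM in ABTr2 (log2 fold change -5.35, edgeR adjusted p = 0.12, and -5.22 with adjusted p = 0.00013 with the block). IL1B (0.056), CSF2 (0.052), IL13RA2 (0.20) and SPP1 (0.078) lost the call without PEO1 replicate 2, by the edgeR adjusted p in brackets. IL13RA2 (0.14) and SPP1 (0.053) lost it without PEO1 replicate 1. IL13RA2 (0.23) lost it without ABTr2 replicate 1. CSF2 had a log2 fold change of 11.30 without PEO1 replicate 1. The fitted log2 fold change of IL13RA2 was 7.95 with all libraries and 3.02 without ABTr2 replicate 1. CCL2 had a log2 fold change of 4.28 without ABTr2 replicate 2 in the fit without the block. LCN2 had a log2 fold change of -3.24 without PEO1 replicate 2 in the fit without the block.

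Interferon-stimulated genes and antigen presentation held no gene that passed without the block. Of the 28 interferon-stimulated genes 8 had an unadjusted edgeR p under 0.05, 4 passed in DESeq2 and 0 in limma-voom, and of the 17 antigen presentation genes 3 had an unadjusted edgeR p under 0.05, 2 passed in DESeq2 and 1 in limma-voom. With the block 8 of 28 interferon-stimulated genes passed as higher and 3 as lower, against 11.3% and 10.8% of all genes. ISG20, an antiviral exonuclease, was at 4.81 and 5.30 CPM in the PEO1 libraries and 14.7 and 13.8 CPM in the ABTr2 libraries (log2 fold change 1.50, edgeR adjusted p = 0.0502, and 1.51 with adjusted p = 0.0059 with the block). MX1, an antiviral GTPase, was at 29.2 and 22.7 CPM in PEO1 against 57.7 and 49.6 CPM in ABTr2 (log2 fold change 1.05, edgeR adjusted p = 0.054, and 1.05 with adjusted p = 0.0097 with the block). Of 17 antigen presentation genes 3 (HLA-B, HLA-E and B2M) passed as higher and 3 (TAP2, ERAP1 and CIITA) as lower with the block. ERAP1, which trims peptides for class I molecules, was at 35.1 and 93.98 CPM in PEO1 against 19.2 and 23.6 CPM in ABTr2 (log2 fold change -1.59, edgeR adjusted p = 0.067, and -1.50 with adjusted p = 0.0077 with the block). For ISG20, MX1 and ERAP1 the groups did not overlap.

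Other large rises included genes better known from nerve and blood cells. PTPRN2, a protein of neuroendocrine secretory granules, had 0 reads in PEO1 and 4.00 and 6.33 CPM in ABTr2, at least 102-fold higher (edgeR adjusted p = 0.0051). EEF1A2, the elongation factor form of muscle and neurons, was at 0.174 and 0.155 CPM in the PEO1 libraries and 26.2 and 75.8 CPM in the ABTr2 libraries (log2 fold change 8.24 with SE 1.10, edgeR adjusted p = 0.0069). HCLS1, an actin regulator of blood cells, was at 0.124 and 0.310 CPM in PEO1 against 51.4 and 32.03 CPM in ABTr2 (log2 fold change 7.65 with SE 0.61, edgeR adjusted p = 0.0016). FLI1, an ETS factor of blood and endothelium, was at 0 and 0.0774 CPM in PEO1 against 7.31 and 8.16 CPM in ABTr2, a ratio of 249 (95% counting interval 68.7 to 2065) with edgeR adjusted p = 0.0065. These 4 genes were at or near 0 in both PEO1 libraries and were measured in both ABTr2 libraries. Monoamine oxidase A (MAOA, hg19 chrX:43514155-43606071), a mitochondrial enzyme that degrades serotonin, was at 0.347 and 0.155 CPM in PEO1 against 60.8 and 39.4 CPM in ABTr2 (log2 fold change 7.56 with SE 0.75, edgeR adjusted p = 0.0033). VAT1L was at 0.397 and 0.0774 CPM in PEO1 against 27.6 and 51.1 CPM in ABTr2 (log2 fold change 7.24 with SE 0.70, edgeR adjusted p = 0.0033). EEF1A2 lost the call without PEO1 replicate 2 (0.054), by the edgeR adjusted p in brackets.

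**Figure D2:**
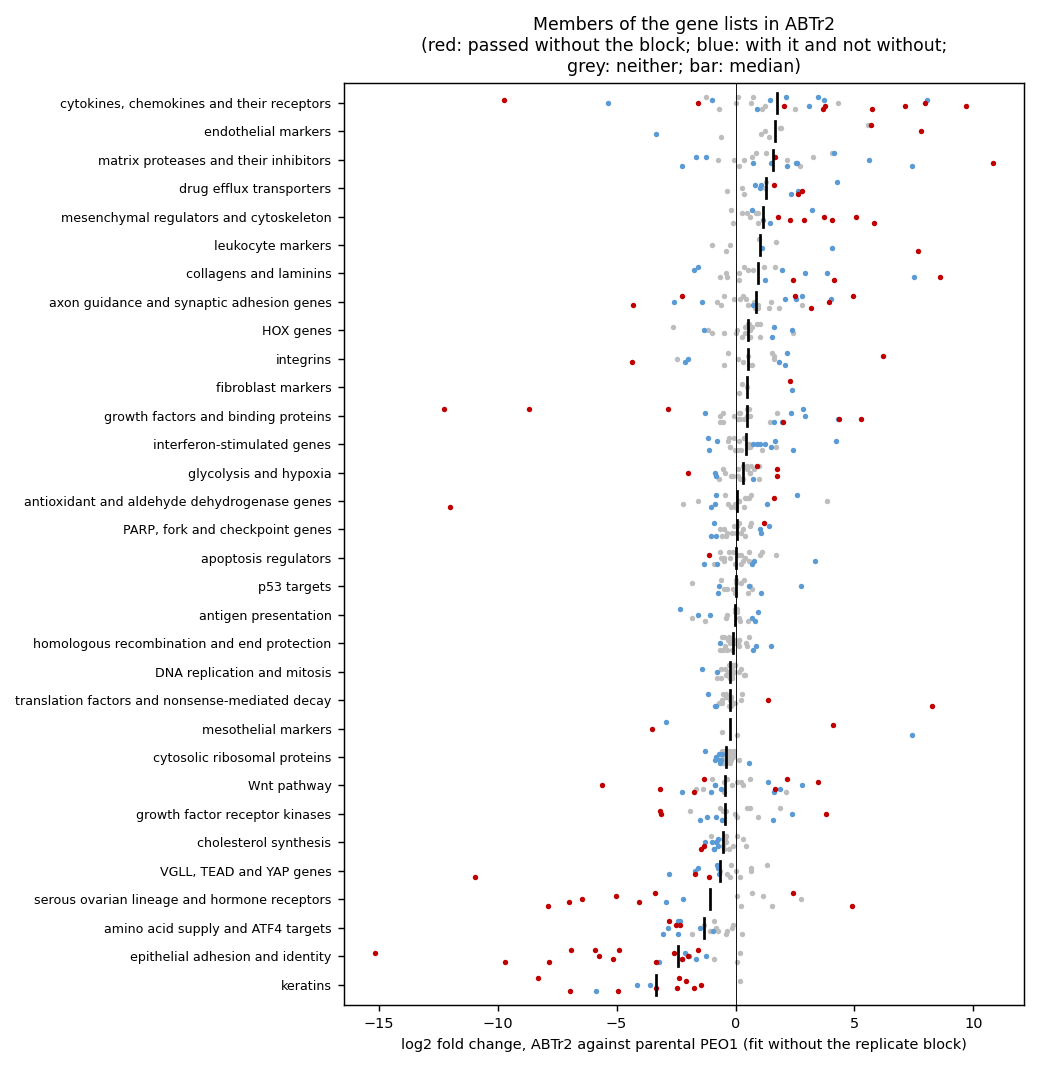
Log2 fold change of ABTr2 against PEO1 (horizontal axis, fit without the block) for each tested gene of the 32 lists (vertical axis), 1 point per gene, red where the gene passed without the block, blue where it passed with it and not without, grey where it passed in neither, with a bar at the list median. Keratins and the epithelial list lie lowest, with medians of -3.34 and -2.41, cytokines highest at 1.74, and the position of a gene with 0 reads in a group is a fitted value and no measured fold.

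Growth factors and their receptors moved in both directions. Of 30 growth factors and binding proteins 3 rose and 3 fell, and of 20 receptor kinases 1 rose and 2 fell. The shares of all genes that rose and fell were 3.31% and 2.81%. FGFR1, the receptor of fibroblast growth factors in mesenchyme, was at 9.32 and 2.90 CPM in the PEO1 libraries and 120.3 and 49.5 CPM in the ABTr2 libraries (log2 fold change 3.79 with SE 0.63, edgeR adjusted p = 0.014). FGFR2, whose epithelial form binds FGF7, was at 64.9 and 65.6 CPM in PEO1 against 2.62 and 12.1 CPM in ABTr2 (log2 fold change -3.17 with SE 0.72, edgeR adjusted p = 0.039), so the FGFR pair moved in opposite directions. ERBB3, the neuregulin receptor, was at 137 and 252 CPM in PEO1 against 11.1 and 33.4 CPM in ABTr2 (log2 fold change -3.13, edgeR adjusted p = 0.041), and its ligand NRG1 at 32.9 and 16.8 CPM in PEO1 against 4.29 and 2.66 CPM in ABTr2 (log2 fold change -2.83, edgeR adjusted p = 0.015). Receptor and ligand fell together. IGFBP2, which binds insulin-like growth factors, rose (0.620 and 0.310 CPM in PEO1 against 12.7 and 24.3 CPM in ABTr2, log2 fold change 5.26, edgeR adjusted p = 0.0057). IGFBP5 of the same family fell (333 and 9277 CPM in PEO1 against 7.47 and 16.2 CPM in ABTr2, log2 fold change -8.67, edgeR adjusted p = 0.021), most of its PEO1 level being in replicate 2. FGFR1 (0.056), FGFR2 (0.11) and ERBB3 (0.16) lost the call without PEO1 replicate 2, by the edgeR adjusted p in brackets. FGFR2 (0.068) lost it without PEO1 replicate 1. FGFR2 (0.083), ERBB3 (0.13) and IGFBP5 (0.088) lost it without ABTr2 replicate 1. NRG1 (0.069) and IGFBP5 (0.075) lost it without ABTr2 replicate 2. IGFBP5 had a log2 fold change of -4.80 without PEO1 replicate 2.

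In the Wnt pathway 3 of 28 genes rose and 4 fell, beside 3.31% and 2.81% of all genes. FZD4, a Wnt receptor, was at 9.72 and 10.02 CPM in the PEO1 libraries and 32.3 and 30.1 CPM in the ABTr2 libraries (log2 fold change 1.66 with SE 0.23, edgeR adjusted p = 0.0073). DKK1, a secreted Wnt inhibitor, was at 12.9 and 6.27 CPM in PEO1 against 165 and 45.5 CPM in ABTr2 (log2 fold change 3.45 with SE 0.59, edgeR adjusted p = 0.016). The ligand WNT10A was at 5.95 and 11.99 CPM in PEO1 against 0.109 and 0.290 CPM in ABTr2 (log2 fold change -5.60 with SE 1.05, edgeR adjusted p = 0.021). LGR4, the R-spondin receptor, was at 132 and 103 CPM in PEO1 against 34.1 and 36.1 CPM in ABTr2 (log2 fold change -1.74, edgeR adjusted p = 0.0077), and DKK3 rose while TCF7L2 and RNF43 fell. Axon guidance and synaptic adhesion genes included 4 of 30 that rose and 2 that fell, with a median log2 fold change of 0.85. NRP1, the co-receptor of semaphorins and VEGF, was at 11.4 and 6.42 CPM in PEO1 against 179.6 and 95.1 CPM in ABTr2 (log2 fold change 3.95 with SE 0.43, edgeR adjusted p = 0.0040), and NCAM1 at 1.36 and 0.619 CPM in PEO1 against 20.6 and 41.98 CPM in ABTr2 (log2 fold change 4.95 with SE 0.64, edgeR adjusted p = 0.0061). The guidance cue NTN1 fell (99.8 and 129.6 CPM in PEO1 against 3.03 and 8.70 CPM in ABTr2, log2 fold change -4.31, edgeR adjusted p = 0.010), as did the ephrin EFNA5 (34.1 and 46.97 CPM in PEO1 against 10.4 and 6.67 CPM in ABTr2, log2 fold change -2.24, edgeR adjusted p = 0.022). Of 18 genes of VGLL, TEAD and YAP 3 fell (VGLL1, TEAD3 and STK3), 0 rose and 9 passed as lower with the block. TEAD3, a DNA-binding partner of YAP, was at 35.1 and 44.03 CPM in PEO1 against 17.6 and 18.9 CPM in ABTr2 (log2 fold change -1.12, edgeR adjusted p = 0.038), and the Hippo kinase STK3 at 132 and 187 CPM in PEO1 against 48.8 and 47.9 CPM in ABTr2 (log2 fold change -1.72, edgeR adjusted p = 0.0080). No HOX gene of 24 passed without the block in edgeR, while 4 had an unadjusted edgeR p under 0.05, 3 passed in DESeq2 and 0 in limma-voom. With the block 3 (HOXA5, HOXB8 and HOXD1) passed as higher and 1 (HOXA3) as lower, against 11.3% and 10.8% of all genes. DKK1 (0.085), WNT10A (0.082), EFNA5 (0.098) and TEAD3 (0.17) lost the call without PEO1 replicate 2, by the edgeR adjusted p in brackets. WNT10A (0.093), EFNA5 (0.057) and TEAD3 (0.14) lost it without ABTr2 replicate 1. WNT10A (0.059), EFNA5 (0.11) and TEAD3 (0.14) lost it without ABTr2 replicate 2. DKK1 had a log2 fold change of 2.24 without ABTr2 replicate 1.

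Genes of amino acid supply and targets of ATF4, the transcription factor of amino acid shortage, that passed were all lower in ABTr2, and PEO1 replicate 2 held the highest summed level of the 4 libraries. Of 21 tested 3 fell and 0 rose, 10 passed as lower with the block, and the median log2 fold change was -1.35. Among all genes 2.81% fell and 10.8% passed as lower with the block. The summed level was 3402 and 9161 CPM in PEO1 and 2112 and 1551 CPM in ABTr2. SLC7A5, the exchanger of large neutral amino acids, was at 998 and 2024 CPM in the PEO1 libraries and 314 and 120.2 CPM in the ABTr2 libraries (log2 fold change -2.80, edgeR adjusted p = 0.0495), and its partner SLC3A2 at 344 and 721 CPM in PEO1 against 141 and 73.3 CPM in ABTr2 (log2 fold change -2.31, edgeR adjusted p = 0.046). PHGDH, the entry enzyme of serine synthesis, was at 191 and 799 CPM in PEO1 against 85.3 and 91.6 CPM in ABTr2 (log2 fold change -2.48, edgeR adjusted p = 0.048). For these 3 genes the groups did not overlap. In cholesterol synthesis 2 of 23 genes fell, 0 rose and 9 passed as lower with the block. CYP51A1, which removes the methyl group of lanosterol, was at 168 and 291 CPM in PEO1 against 86.9 and 79.6 CPM in ABTr2 (log2 fold change -1.46, edgeR adjusted p = 0.031). SLC7A5 (0.0510) lost the call without PEO1 replicate 1, by the edgeR adjusted p in brackets. SLC7A5 (0.19), SLC3A2 (0.20), PHGDH (0.20) and CYP51A1 (0.15) lost it without PEO1 replicate 2. SLC7A5 (0.068), SLC3A2 (0.077), PHGDH (0.15) and CYP51A1 (0.10) lost it without ABTr2 replicate 1. SLC7A5 (0.19), SLC3A2 (0.20), PHGDH (0.16) and CYP51A1 (0.14) lost it without ABTr2 replicate 2. PHGDH had a log2 fold change of -1.10 without PEO1 replicate 2.

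Of 25 genes of glycolysis and the response to low oxygen, 3 rose and 1 fell, beside 3.31% and 2.81% of all genes. The prolyl hydroxylase of collagen P4HA1 was at 17.2 and 20.3 CPM in the PEO1 libraries and 41.7 and 85.4 CPM in the ABTr2 libraries (log2 fold change 1.76, edgeR adjusted p = 0.023), the neuronal enolase ENO2 at 26.3 and 13.3 CPM in PEO1 against 65.7 and 66.1 CPM in ABTr2 (log2 fold change 1.73, edgeR adjusted p = 0.026) and phosphofructokinase PFKL at 87.6 and 80.2 CPM in PEO1 against 153 and 157 CPM in ABTr2 (log2 fold change 0.88, edgeR adjusted p = 0.037). EGLN3, which hydroxylates the hypoxia factor HIF, fell (16.4 and 22.1 CPM in PEO1 against 4.98 and 4.78 CPM in ABTr2, log2 fold change -1.98, edgeR adjusted p = 0.0485). Among 22 antioxidant and aldehyde dehydrogenase genes the heme oxygenase HMOX1 rose (8.73 and 14.01 CPM in PEO1 against 44.5 and 25.7 CPM in ABTr2, log2 fold change 1.63, edgeR adjusted p = 0.035) and ALDH3B2 fell. None of 33 cytosolic ribosomal proteins passed without the block in edgeR, while 2 had an unadjusted edgeR p under 0.05, 1 passed in DESeq2 and 0 in limma-voom. With the block 8 passed as lower and 1 (RPL13) as higher, against 10.8% and 11.3% of all genes. RPS23 was at 1016 and 1496 CPM in PEO1 against 383 and 648 CPM in ABTr2 (log2 fold change -1.28, edgeR adjusted p = 0.12, and -1.31 with adjusted p = 0.00099 with the block). Of 23 translation and nonsense-mediated decay factors 2 rose, EEF1A2 and EIF5A2 (26.8 and 15.7 CPM in PEO1 against 58.9 and 49.8 CPM in ABTr2, log2 fold change 1.35, edgeR adjusted p = 0.035), and 0 fell. P4HA1 (0.080), PFKL (0.082), EGLN3 (0.066) and HMOX1 (0.13) lost the call without PEO1 replicate 1, by the edgeR adjusted p in brackets. P4HA1 (0.092), ENO2 (0.096), PFKL (0.16), EGLN3 (0.18), HMOX1 (0.071) and EIF5A2 (0.14) lost it without PEO1 replicate 2. P4HA1 (0.095), ENO2 (0.078), PFKL (0.16), EGLN3 (0.18) and EIF5A2 (0.081) lost it without ABTr2 replicate 2. ENO2 (0.075), PFKL (0.12), EGLN3 (0.14), HMOX1 (0.14) and EIF5A2 (0.12) lost it without ABTr2 replicate 1. P4HA1 had a log2 fold change of 1.14 without ABTr2 replicate 2.

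The DNA repair lists held 1 call without the block. None of 24 genes of homologous recombination and end protection passed without the block in edgeR, while 3 had an unadjusted edgeR p under 0.05, 2 passed in DESeq2 and 0 in limma-voom. With the block 3 of the 24 (BRCA2, ATM and MAD2L2) passed as higher and 1 (SHFM1) as lower, against 11.3% and 10.8% of all genes. BRCA2 (hg19 chr13:32889617-32973809), which acts in the repair of DNA breaks by homologous recombination, was at 19.02 and 5.80 CPM in the PEO1 libraries and 59.8 and 10.7 CPM in the ABTr2 libraries. The groups overlapped, since PEO1 replicate 1 was above ABTr2 replicate 2, and replicate 1 was the higher library in both (log2 fold change 1.51, edgeR adjusted p = 0.39, and 1.34 with adjusted p = 0.0096 with the block). Without ABTr2 replicate 1 the fit without the block gave a log2 fold change of -0.23, with edgeR adjusted p = 0.91. The BRCA2 count says nothing of whether the transcript can be read through or makes protein. ATM, the kinase that signals double-strand breaks, was at 42.8 and 61.4 CPM in PEO1 against 90.9 and 100.1 CPM in ABTr2 (log2 fold change 0.87, edgeR adjusted p = 0.077, and 0.88 with adjusted p = 0.016 with the block), and SHFM1, a small partner of BRCA2, at 113 and 110.0 CPM in PEO1 against 62.8 and 80.9 CPM in ABTr2 (log2 fold change -0.64, edgeR adjusted p = 0.13, and -0.64 with adjusted p = 0.033 with the block). TP53BP1, which protects broken ends from resection, was at 89.7 and 69.4 CPM in PEO1 against 85.9 and 88.7 CPM in ABTr2 (log2 fold change 0.13, edgeR adjusted p = 0.79). The drug target PARP1 was at 161 and 76.03 CPM in PEO1 against 207 and 101 CPM in ABTr2 (log2 fold change 0.38, edgeR adjusted p = 0.72), and PARG, which removes the chains that PARP1 makes, at 44.8 and 47.5 CPM in PEO1 against 55.8 and 40.8 CPM in ABTr2 (log2 fold change 0.07, edgeR adjusted p = 0.92). For these 3 genes the call was absent in both fits. ETAA1, an activator of the checkpoint kinase ATR, was the only gene of 22 in the PARP, fork and checkpoint list that rose (25.1 and 20.7 CPM in PEO1 against 58.2 and 46.1 CPM in ABTr2, log2 fold change 1.19, edgeR adjusted p = 0.034). With the block 4 of these 22 passed as higher and 3 (XRCC1, EZH2 and TIMELESS) as lower, against 11.3% and 10.8% of all genes. SLFN11, which blocks stressed replication forks, was at 62.6 and 62.8 CPM in PEO1 against 162 and 101 CPM in ABTr2 (log2 fold change 1.07, edgeR adjusted p = 0.078, and 1.03 with adjusted p = 0.0058 with the block), and both ABTr2 libraries were above both PEO1 libraries. ETAA1 lost the call without PEO1 replicate 1 (0.063), PEO1 replicate 2 (0.15), ABTr2 replicate 1 (0.13) or ABTr2 replicate 2 (0.068), by the edgeR adjusted p in brackets. BRCA2 had a log2 fold change of 2.58 without PEO1 replicate 1 and 0.89 without PEO1 replicate 2 in the fit without the block. SLFN11 had a log2 fold change of 0.68 without ABTr2 replicate 1 in the fit without the block. TP53BP1 turned to -0.029 on the log2 scale without PEO1 replicate 2 (edgeR adjusted p = 0.97). PARP1 turned to -0.054 on the log2 scale without PEO1 replicate 2 (edgeR adjusted p = 0.97). PARP1 turned to -0.23 on the log2 scale without ABTr2 replicate 1 (edgeR adjusted p = 0.84). PARG turned to -0.0070 on the log2 scale without PEO1 replicate 1 (edgeR adjusted p = 0.99). PARG turned to -0.18 on the log2 scale without ABTr2 replicate 1 (edgeR adjusted p = 0.77).

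Of the efflux transporters, which can carry drugs out of cells, 3 were called higher in ABTr2. Among 14 tested, 3 rose and 0 fell, 9 passed as higher with the block, and the median log2 fold change was 1.27. Of all genes, 3.31% rose and 11.3% passed as higher with the block. In 11 of the 14 both ABTr2 libraries lay above both PEO1 libraries, against 24.7% of all genes. This list, too, was chosen with earlier results of these data known. ABCG2, the breast cancer resistance protein, was at 1.04 and 1.24 CPM in the PEO1 libraries and 3.42 and 10.9 CPM in the ABTr2 libraries (log2 fold change 2.64 with SE 0.65, edgeR adjusted p = 0.0491). ABCA1, the cholesterol exporter, was at 8.31 and 8.51 CPM in PEO1 against 57.5 and 60.8 CPM in ABTr2 (log2 fold change 2.81 with SE 0.39, edgeR adjusted p = 0.0074), and ABCA3, a lipid transporter, at 13.7 and 14.5 CPM in PEO1 against 39.7 and 46.8 CPM in ABTr2 (log2 fold change 1.62 with SE 0.24, edgeR adjusted p = 0.0092). ABCB1, the multidrug pump P-glycoprotein, was low in every library, at 0.198 and 0.387 CPM in PEO1 against 1.73 and 1.16 CPM in ABTr2 (log2 fold change 2.33, edgeR adjusted p = 0.080, and 2.30 with adjusted p = 0.031 with the block). ABCG2 (0.15) lost the call without PEO1 replicate 1, by the edgeR adjusted p in brackets. ABCG2 (0.17), ABCA1 (0.052) and ABCA3 (0.052) lost it without PEO1 replicate 2. ABCG2 (0.24) lost it without ABTr2 replicate 2. ABCG2 had a log2 fold change of 1.57 without ABTr2 replicate 2.

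Proliferation, p53 and apoptosis genes held 1 call without the block. None of 27 replication and mitosis genes passed without the block in edgeR, while 0 had an unadjusted edgeR p under 0.05, 0 passed in DESeq2 and 0 in limma-voom. MKI67 and MCM4 passed as lower with the block, 2 of the 27, beside 10.8% of all genes. MKI67 had a log2 fold change of -1.40 (edgeR adjusted p = 0.41), and -1.51 with adjusted p = 0.0035 with the block. The mitotic cyclin CCNB1 was at 383 and 147 CPM in the PEO1 libraries and 166 and 140.3 CPM in the ABTr2 libraries (log2 fold change -0.79, edgeR adjusted p = 0.31), with overlapping groups. None of 18 p53 targets passed without the block in edgeR, while 5 had an unadjusted edgeR p under 0.05, 2 passed in DESeq2 and 0 in limma-voom. MDM2, the ubiquitin ligase of p53, was at 119 and 93.7 CPM in PEO1 against 66.6 and 64.6 CPM in ABTr2 (log2 fold change -0.70, edgeR adjusted p = 0.094, and -0.69 with adjusted p = 0.022 with the block). TNFRSF10C, a decoy receptor of the death ligand TRAIL, was at 0.397 and 0.271 CPM in PEO1 against 1.25 and 3.38 CPM in ABTr2 (log2 fold change 2.75, edgeR adjusted p = 0.14, and 2.44 with adjusted p = 0.024 with the block). Of 26 apoptosis regulators BID, which links caspase 8 to mitochondria, fell (133 and 134 CPM in PEO1 against 50.7 and 73.6 CPM in ABTr2, log2 fold change -1.10, edgeR adjusted p = 0.036). BID lost the call without PEO1 replicate 1 (0.068), PEO1 replicate 2 (0.13), ABTr2 replicate 1 (0.15) or ABTr2 replicate 2 (0.059), by the edgeR adjusted p in brackets. MKI67 had a log2 fold change of -0.34 without PEO1 replicate 1, -2.88 without ABTr2 replicate 1 and -0.70 without ABTr2 replicate 2 in the fit without the block. CCNB1 turned to 0.024 on the log2 scale without PEO1 replicate 1 (edgeR adjusted p = 0.98).

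Markers of other cell types were counted in the same way. DCN, LUM and COL3A1, which define fibroblasts, had 0 reads in all 4 libraries, 5 of 12 fibroblast markers were tested, and ACTA2 was the only one that rose. CD3E, CD3D, FCGR3A, NKG7 and TYROBP of leukocytes had 0 reads, 8 of 16 leukocyte markers were tested, and HCLS1 was the only one that rose. The summed level of fibroblast markers was 99.1 to 179 CPM in PEO1 and 143 to 205 CPM in ABTr2, and that of leukocyte markers 66.1 to 88.5 CPM and 121 to 219 CPM. Of 14 endothelial markers 10 were tested and FLI1 and ROBO4 rose, with PLVAP at 0 reads and sums of 25.2 to 65.7 CPM in PEO1 and 46.9 to 63.5 CPM in ABTr2. ROBO4, an endothelial guidance receptor, was at 0.769 and 0.310 CPM in PEO1 against 37.2 and 20.6 CPM in ABTr2 (log2 fold change 5.69, edgeR adjusted p = 0.0033). Of 12 mesothelial markers 6 were tested, LRRN4 rose (1.02 and 0.0774 CPM in PEO1 against 12.3 and 7.29 CPM in ABTr2, log2 fold change 4.09, edgeR adjusted p = 0.031) and UPK3B fell (11.1 and 20.6 CPM in PEO1 against 0.963 and 1.88 CPM in ABTr2, log2 fold change -3.50, edgeR adjusted p = 0.0094), with sums of 103 to 225 CPM in PEO1 and 118 to 194 CPM in ABTr2. With the block PDGFRB of fibroblasts, CD68 and LCP1 of leukocytes and DES of mesothelium also passed as higher. CDH5 of endothelium and WT1 passed as lower with it. Since these are bulk libraries, fewer cells with a transcript and less of it per cell cannot be told apart. LRRN4 lost the call without PEO1 replicate 2 (0.060) or ABTr2 replicate 1 (0.083), by the edgeR adjusted p in brackets. LRRN4 had a log2 fold change of 6.90 without PEO1 replicate 1.

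The fit with the block added 2632 genes to the 1008, in equal numbers higher and lower (1316 each), and lost none. Of the added genes 269 overlapped in CPM between the groups, and 2629 had the same direction within replicate 1 and within replicate 2. The block fit picks genes whose difference holds within the replicate numbers. This shared direction therefore follows largely from the choice and is no separate support. The median SE of the 1008 genes was 0.47 without and 0.37 with the block, and the biological coefficient of variation was 0.368 and 0.234. This SE is computed from the F statistic of each fit, so it is no measure of spread separate from the test. With the block, 4320 genes passed without PEO1 replicate 1, 2822 without PEO1 replicate 2, 1988 without ABTr2 replicate 1 and 1579 without ABTr2 replicate 2. Among the largest changes that passed in the edgeR fit with the block and not in the one without it, ATOH8, a helix-loop-helix factor, was at 0.149 and 0.232 CPM in the PEO1 libraries and 3.09 and 45.6 CPM in the ABTr2 libraries (log2 fold change 7.01, edgeR adjusted p = 0.061, and 6.28 with adjusted p = 0.00095 with the block). STRA6, the receptor for the retinol carrier, was at 0.273 and 1.16 CPM in PEO1 against 9.78 and 16.2 CPM in ABTr2 (log2 fold change 4.22, edgeR adjusted p = 0.074, and 4.51 with adjusted p = 0.00097 with the block). FIBCD1, a chitin-binding receptor, was at 0.198 and 1.35 CPM in PEO1 against 6.12 and 18.6 CPM in ABTr2 (log2 fold change 4.03, edgeR adjusted p = 0.078, and 4.21 with adjusted p = 0.00015 with the block). In each of these both ABTr2 libraries were above both PEO1 libraries, and so were the same-numbered pairs. On the lower side, VTCN1, the inhibitory ligand B7-H4 of ovarian carcinoma, was at 3.97 and 34.6 CPM in PEO1 against 0.0363 and 0.386 CPM in ABTr2 (log2 fold change -6.78, edgeR adjusted p = 0.0509, and -6.49 with adjusted p = 0.00010 with the block). FAM198B was at 32.5 and 48.4 CPM in PEO1 against 0.418 and 1.98 CPM in ABTr2 (log2 fold change -5.14, edgeR adjusted p = 0.067, and -5.48 with adjusted p = 0.0017 with the block). PRSS37 had 0 reads in ABTr2 and 1.09 and 41.3 CPM in PEO1, at least 424-fold lower (edgeR adjusted p = 0.061, and 0.0013 with the block). These 6 genes also passed in other settings without the block, all of them with no filter on low counts and all but PRSS37 in DESeq2, FAM198B in limma-voom, ATOH8 without ABTr2 replicate 1, and VTCN1 and PRSS37 without PEO1 replicate 1. ATOH8 had a log2 fold change of 4.02 without ABTr2 replicate 2 in the fit without the block. VTCN1 had a log2 fold change of -4.43 without PEO1 replicate 2 in the fit without the block.

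**Figure D3:**
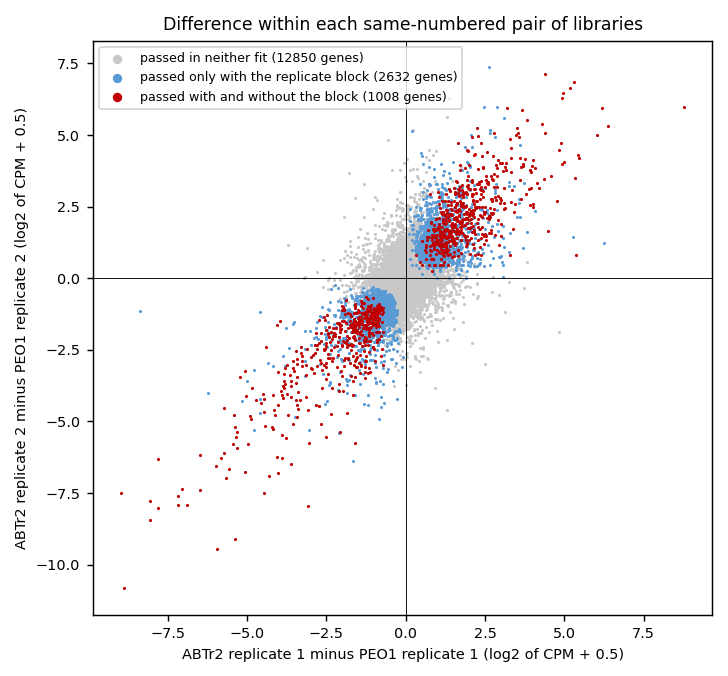
Difference in log2(CPM + 0.5) between ABTr2 and PEO1 within replicate 1 (horizontal axis) and within replicate 2 (vertical axis), 1 point per tested gene, red where the gene passed in both fits, blue where it passed with the block and not without it, and grey where it passed in neither. The red and blue points lie in the quadrants where both differences have the same sign, apart from 3 of the 2632 blue ones. For the blue points this follows largely from how the block fit picks genes.

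**Figure D4:**
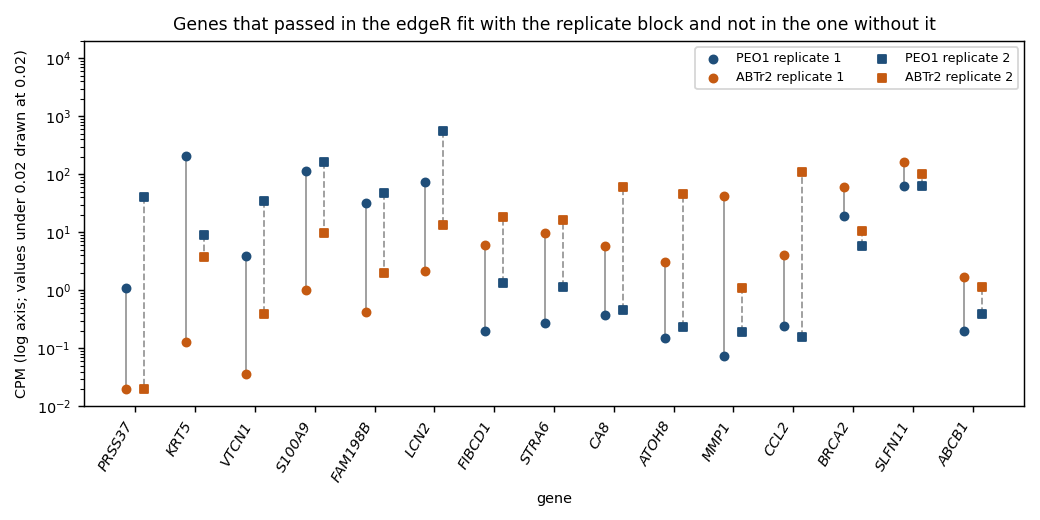
CPM on a log axis (values under 0.02 drawn at 0.02) in PEO1 and ABTr2 for 15 genes that passed in the edgeR fit with the block and not in the one without it, 1 point per library, with libraries of the same replicate number joined by a solid (replicate 1) or dashed (replicate 2) line. In each gene both lines run in the same direction, and BRCA2 goes from 19.02 to 59.8 CPM in replicate 1 and from 5.80 to 10.7 CPM in replicate 2. The shared direction follows largely from how the block fit picks genes.

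The median change of neighbouring genes differed between regions. Tested genes were placed in windows of 20 Mb on hg19, and the 155 windows with at least 20 genes held 16236 genes. The median log2 fold change per window ran from -1.32 to 0.87, with quartiles of -0.12 and 0.19. The lowest medians were on chromosome 18, at -1.32 between 60 and 80 Mb (43 genes, 17 of them called lower) and -1.10 between 40 and 60 Mb (67 genes, 19 lower). Next came chromosome 5 between 60 and 80 Mb, the window of OCLN, at -0.72 (96 genes, 14 lower). The highest was the end of chromosome 16 from 80 Mb on, at 0.87 (96 genes, 15 of them called higher), followed by chromosome 11 between 80 and 100 Mb at 0.59 (68 genes, 4 higher). Chromosome 18 as a whole had 42 genes lower and 9 higher of 246 tested, chromosome 5 had 53 lower and 21 higher of 775, and chromosome 16 had 40 higher and 13 lower of 728. With the block 27 genes were lower in the window of chromosome 18 from 60 Mb and 52 higher in that of chromosome 16 from 80 Mb. Against PEO1, which they share, the other clones had medians of -1.29 (ABTr1), -1.25 (ABTr3) and -1.26 (ABTr4) in the window of chromosome 18 from 60 Mb and 0.66 (ABTr1), 0.85 (ABTr3) and 0.95 (ABTr4) in that of chromosome 16 from 80 Mb. RNA counts do not measure the number of gene copies.

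**Figure D5:**
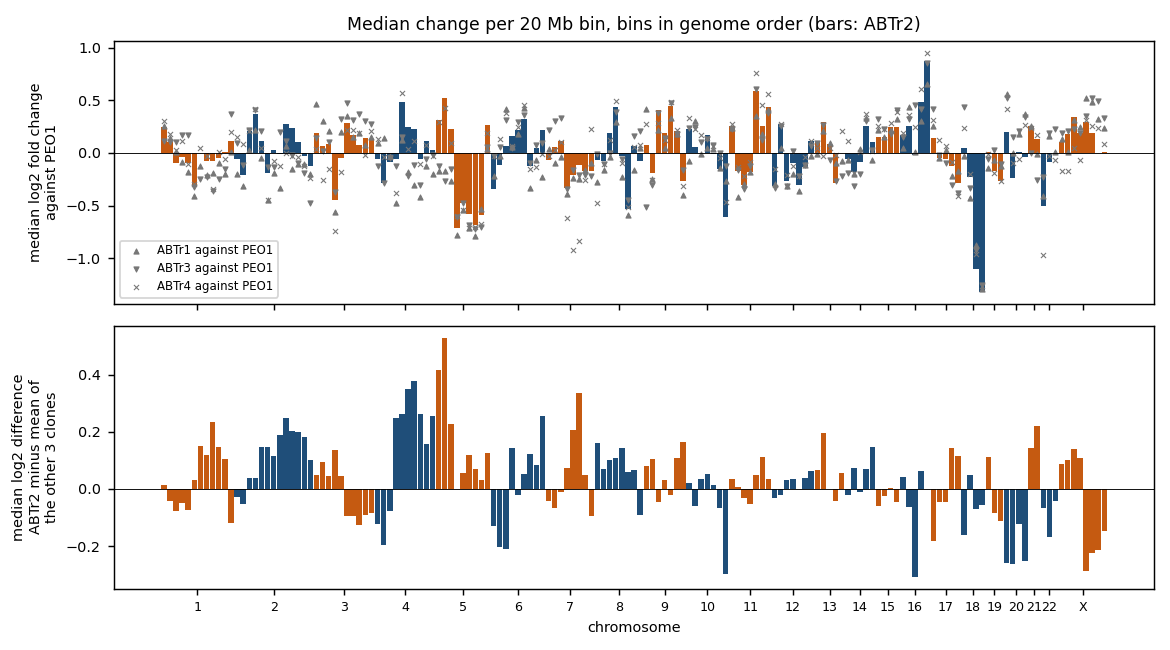
Median log2 fold change per 20 Mb window of ABTr2 (bars) and of the other clones (grey marks) against PEO1 (upper panel), and median log2 difference between ABTr2 and the mean of the other clones (lower panel), with windows in genome order and chromosomes in alternating colours. In the upper panel the lowest bars are on chromosome 18 at -1.32 and -1.10 and the highest is on chromosome 16 at 0.87.

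ABTr2 was also set against the mean of the other clones and against each of them. Against the mean of ABTr1, ABTr3 and ABTr4, 0 of 16490 genes passed in edgeR without the block (0%) and 0 with it, while 495 and 1478 had an unadjusted p under 0.05, 18 passed in DESeq2 and 0 in limma-voom. The smallest edgeR adjusted p was 0.81 without and 0.056 with the block. The median absolute log2 difference over all genes was 0.21 against the other clones and 0.48 against PEO1. Against single clones, 0 genes passed without the block in edgeR, and 773 (ABTr1), 498 (ABTr3) and 663 (ABTr4) had an unadjusted p under 0.05. DESeq2 called 43, 29 and 94 genes there. With the block, 2 genes passed against ABTr1 (0.0121%), 4 against ABTr3 (0.0243%) and 30 against ABTr4 (0.182%), 29 of the 30 higher in ABTr2 and 7 of the 30 on chromosome 7, which held 812 of the 16490 genes tested. Against PEO1 the windows of chromosome 7 from 80 and from 100 Mb had medians of -0.92 and -0.84 in ABTr4, beside -0.21 and -0.11 in ABTr2. The genes named from these were chosen after their values were seen. SPINT1, an inhibitor of membrane proteases, was at 28.04 and 53.96 CPM in ABTr2 and 4.67 and 12.9 CPM in ABTr4 (log2 difference 2.30 with SE 0.22, edgeR adjusted p = 0.0083 with the block, and 2.23 with adjusted p = 0.80 without it). Its target ST14 (matriptase) was at 52.3 and 84.5 CPM in ABTr2 and 12.3 and 21.2 CPM in ABTr4 (log2 difference 2.04 with SE 0.22, edgeR adjusted p = 0.0091 with the block, and 2.03 with adjusted p = 0.41 without it). LSR, a receptor of tricellular junctions, was at 25.7 and 38.1 CPM in ABTr2 and 2.02 and 3.29 CPM in ABTr4 (log2 difference 3.59 with SE 0.36, edgeR adjusted p = 0.0084 with the block, and 3.59 with adjusted p = 0.18 without it). These 3 epithelial genes were lower in both ABTr4 libraries than in any ABTr2 library, and ABTr1 and ABTr3 lay between 18.1 and 86.4 CPM, also above ABTr4 in each gene. MMP2 was higher in ABTr2 than in ABTr3, at 18.3 and 48.9 CPM in ABTr2 and 2.68 and 6.82 CPM in ABTr3 (log2 difference 2.80 with SE 0.28, edgeR adjusted p = 0.020 with the block, and 2.82 with adjusted p = 1 without it), with 10.7 and 24.8 CPM in ABTr1 and 8.97 and 27.01 CPM in ABTr4. IPCEF1 was at 0.218 and 0.290 CPM in ABTr2 and 62.1 and 15.5 CPM in ABTr1 (log2 difference -7.22 with SE 0.59, edgeR adjusted p = 0.0032 with the block, and -7.28 with adjusted p = 0.092 without it). PEO1, ABTr3 and ABTr4 were as low in IPCEF1 as ABTr2, at 0.0774 to 0.402 CPM, so the clone with another level was ABTr1. The other clones' log2 fold changes against PEO1, which share the PEO1 libraries, were -5.51, -8.39 and -11.01 for CDH1 in ABTr1, ABTr3 and ABTr4 beside -7.84 in ABTr2. For VIM they were 7.80, 5.22 and 4.86 beside 5.80, and for IL1B 8.48, 9.98 and 8.91 beside 9.67.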

How the data were processed

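The data are deposited RNA-seq counts per gene, whole numbers not normalized, in a table of 25370 genes and 10 libraries. Per the submitters' processing notes, the authors aligned reads to hg19 with TopHat2 2.0.14 and counted them with featureCounts 1.4.6 of Subread. Per the labels' protocols, the libraries came from a kit for polyadenylated RNA that does not mark strand, so reads of overlapping and antisense genes cannot be told apart. The settings of the counting are not given in the sources used here. The design text names 15 samples in 3 independent experiments, and 10 were analysed here, 2 in each of 5 groups. The labels do not say whether replicates were separate cultures, so the p-values reflect only how far these libraries spread, which may be technical. No library duplicated another. Coordinates are those of the table (hg19), apart from promoters, which are RefSeq sequences on GRCh38.p14 matched by symbol.

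Of the 25370 genes, 16490 passed edgeR's expression filter. The table has 28 symbols turned into dates, 2 repeated symbols and 326 genes listed on more than 1 chromosome. The main test was edgeR 4.0.16 (TMM scaling, quasi-likelihood fit of all 10 libraries with group means, 5 residual degrees of freedom), with p-values adjusted by Benjamini and Hochberg over all tested genes and 0.05 as the threshold. The fit that adds the replicate number as a block has 4 residual degrees of freedom. Over the 10 pairs of groups, same-numbered libraries deviated together with r of 0.348 to 0.808, above the threshold of 0.1, and the pairing comes from the numbers in the library names. Other settings were DESeq2 1.42.0, limma-voom (limma 3.58.1), RLE scaling, no filter, only the compared groups and each library left out, and, chosen after seeing the data, the block with each library left out. CPM use TMM-scaled totals. The SE given with an edgeR log2 fold change is its absolute value divided by the square root of the quasi-likelihood F statistic. It is derived from the test and is not a separately estimated standard error. Genes with 0 reads in a group have a fold bound at 3 counts over the group, and those with 1 to 3 reads a ratio with a 95% counting interval. Setting such genes at their bound changed the median of 1 list, the endothelial markers, from 1.64 to 1.54.

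The 32 gene lists have 722 entries (709 distinct genes), all found in the table, 8 by an older symbol, and 654 distinct genes were tested. The comparison, lists and named genes were chosen with earlier results of these data known. Named in any case were BRCA2, PARP1, PARG, TP53BP1, SLFN11, ABCB1, CDH1 and VIM. The rule added the 12 genes with the largest rise and the 12 with the largest fall at 5 CPM or more that passed with and without the block, up to 4 genes per list with the smallest adjusted p (2 where none passed), 6 rises and 6 falls with at least 10 CPM that passed with the block and not without it, the cell type markers and the promoters printed, and it would have named genes that set ABTr2 apart from the other clones, of which none passed. Some genes that the rule named are not reported here. The fits were also run on counts simulated from the spread fitted to these data, with and without a replicate effect. Such counts cannot show a misfit of that model, and the outcome is not given here. R 4.3.3 was used for the fits.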

Additional observations from a re-analysis of the deposited data

Results flagged for a closer look

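ABTr2 differed from single other clones in a small number of genes, in the fit that adds the replicate number as a block, by the test of that difference itself. The counts were 2 genes against ABTr1, 4 against ABTr3 and 30 against ABTr4, and 0 genes passed in edgeR for any of the 3 without the block. Against ABTr1 the log2 differences were -7.22 for IPCEF1 and -3.80 for SESN3, a stress-induced regulator of mTORC1. SESN3 was at 1.49 and 1.64 CPM in ABTr2 and 16.7 and 28.6 CPM in ABTr1, with 4.21 and 5.73 CPM in ABTr3 and 2.95 and 2.83 CPM in ABTr4. Against ABTr3 they were 2.80 for MMP2, 2.43 for C1orf85, -1.71 for NETO2 and 1.54 for TRIM29, a stress-response protein of epithelium. TRIM29 was at 62.4 and 77.97 CPM in ABTr2 and 23.8 and 24.2 CPM in ABTr3, with 76.5 and 107 CPM in ABTr1 and 62.4 and 64.7 CPM in ABTr4, so ABTr3 held the lowest values of the 4 clones. Against ABTr4 the 8 genes with the smallest p had log2 differences of 4.10 for SPOCK2, 2.30 for SPINT1, 3.59 for LSR, 3.08 for AJAP1, 2.04 for ST14, 1.91 for CTSB, 3.49 for ID4 and 3.09 for NRCAM. SPOCK2, a matrix proteoglycan, was at 257 and 698 CPM in ABTr2 and 19.1 and 32.8 CPM in ABTr4, all 4 values below the 979 and 3215 CPM of PEO1. NRCAM, a neuronal adhesion protein, was at 15.8 and 28.7 CPM in ABTr2 and 1.398 and 4.13 CPM in ABTr4, with 25.7 and 34.2 CPM in ABTr1 and 7.54 and 18.1 CPM in ABTr3. ID4, an inhibitor of helix-loop-helix factors, was at 29.7 and 16.7 CPM in ABTr2 and 1.57 and 2.31 CPM in ABTr4, with 15.7 and 12.1 CPM in ABTr1 and 12.6 and 5.64 CPM in ABTr3. In NRCAM and ID4 the lowest 2 values among the 4 clones were those of ABTr4. In each gene named here both ABTr2 libraries lay on the same side of both libraries of the other clone. The genes were chosen by the test of that difference, so this separation follows largely from the choice and is no separate support.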

How the results depend on the processing

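The count of 1008 genes called between ABTr2 and PEO1 was 986 with limma-voom, 1028 with RLE scaling and 1296 with no filter. It was 2488 in DESeq2 (1362 higher, 1126 lower), 3640 with the replicate block and 78 with only the compared groups in the fit, and leaving out a library gave 251 to 1028. With the block and a library left out it was 1579 to 4320, with 1988 without ABTr2 replicate 1. Of the distinct members of the gene lists, 101 were called and 270 with the replicate block. Of the 89 named genes that were called, 28 kept their call and direction in all 10 other settings, and 61 lost the call in at least 1. Of the 34 named genes not called, 29 passed with the block. Some of these 29 were named because they passed with the block and not without it. Their number therefore follows partly from the choice and does not describe uncalled genes in general. With only the compared groups in the fit, 52 of the 89 lost the call, while 6 lost it in limma-voom and 1 in DESeq2. The lost calls listed gene by gene in the Results cover left-out libraries only. A gene without such an entry may have lost its call in another setting. Directions turned for genes that were not called. On leaving out a library in turn, log2 fold changes ran from -0.23 to 2.58 for BRCA2, from -0.23 to 0.99 for PARP1, from -0.18 to 0.26 for PARG, from -0.029 to 0.30 for TP53BP1, from -1.31 to 0.024 for CCNB1 and from -0.10 to 0.60 for PAX8 (PARP1 -0.054 without PEO1 replicate 2 and -0.23 without ABTr2 replicate 1, PARG -0.0070 without PEO1 replicate 1, PAX8 -0.10 without PEO1 replicate 2 and -0.059 without ABTr2 replicate 1). The cause of these shifts was not tested.

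Against the mean of the other clones DESeq2 called 18 genes and each other setting 0. Against ABTr1 the count was 2 with the replicate block, 43 in DESeq2 and 2 with no filter. Against ABTr3 it was 4 with the replicate block and 29 in DESeq2. Against ABTr4 it was 30 with the replicate block, 94 in DESeq2 and 5 with no filter. The main edgeR fit, without the block, gave 0 genes against each of these clones. The block fit with a library left out was run only against PEO1.

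With 2 libraries a group and the depth of ABTr2 between 20640602 and 55488566 counts, genes under a few CPM rest on few reads in the shallower library, and a p that misses the threshold does not show equal levels. Replicates of the same number share deviations, and what the number stands for is not given in the sources used here. In every group replicate 2 had the lower total count and the larger share of counts in its most abundant genes. The replicate number and these library properties cannot be told apart.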

Other observations

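Some 20 Mb windows had median log2 differences between ABTr2 and the other clones that stood out when all windows were ranked, a choice made after seeing the values and not tested. The largest positive medians of ABTr2 minus the mean of the other clones were on the short arm of chromosome 5, at 0.53 between 20 and 40 Mb and 0.42 between 0 and 20 Mb, followed by chromosome 4 between 120 and 140 Mb at 0.38. Against PEO1, which all these values share, the window of chromosome 5 from 20 to 40 Mb had medians of 0.52 in ABTr2, -0.17 in ABTr1, -0.27 in ABTr3 and 0.43 in ABTr4 (42 genes). From 0 to 20 Mb the medians were 0.31 in ABTr2, -0.17 in ABTr1, -0.13 in ABTr3 and 0.29 in ABTr4 (62 genes). In both windows ABTr2 and ABTr4 had positive medians and ABTr1 and ABTr3 negative ones. The largest negative medians of ABTr2 minus the other clones were -0.31 on chromosome 16 between 40 and 60 Mb and -0.30 on chromosome 10 between 120 and 140 Mb. On chromosome 10 the medians against PEO1 were -0.61 in ABTr2, -0.27 in ABTr1, -0.13 in ABTr3 and -0.47 in ABTr4 (71 genes).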
